A study of Homo sapiens with 12 samples.

Results

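The canonical target genes of the transcriptional coactivators YAP and TAZ were followed in HLE, a cell line from a human hepatocellular carcinoma. These are 10 protein-coding genes, *CCN1*, *CCN2*, *ANKRD1*, *AMOTL2*, *AXL*, *AJUBA*, *F3*, *CRIM1*, *NT5E* and *ARHGEF17*. They were chosen by name as genes widely used as a readout of YAP/TAZ activity, with earlier results of these data known. They were found in the deposited table by their Entrez identifiers, 10 of the 26258 genes listed. All 10 passed the filter of at least 1 CPM (a gene's reads scaled to a library total of 1000000) in at least 2 libraries, as did 13515 genes in all. Every culture received an siRNA, a short double-stranded RNA that lowers a chosen transcript, either a control siRNA (siCtrl), siRNAs against *YAP1* and *WWTR1* (siY/T), the genes of YAP and TAZ, or siRNA against *ATF4* (siATF4). Each was kept with the solvent DMSO or with the multikinase inhibitor Sorafenib (Srf) at 5 µM according to the sample labels. The study's figure legends state a higher dose. The 6 groups hold 2 poly(A) RNA libraries each and are named here siCtrl DMSO, siY/T DMSO, siATF4 DMSO, siCtrl Srf, siY/T Srf and siATF4 Srf. The study's methods name biological triplicates, whereas each group here holds 2 libraries. The labels do not tell whether the 2 libraries of a group came from separate cultures, so p-values measure the spread between these libraries, which may be technical.

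YAP and TAZ are the nuclear effectors of the Hippo pathway. When the LATS kinases of this pathway are inactive, YAP and TAZ enter the nucleus and bind the TEAD transcription factors, which recognize a short DNA motif with the core GGAATG, often close to sites of the factor AP-1. The target genes include secreted matrix proteins, cytoskeletal and junctional proteins, receptors, and proteins that act back on the pathway. In the liver, YAP and TAZ control organ size and regeneration, and their activity is frequently raised in hepatocellular carcinoma. ATF4 is the main transcription factor of the integrated stress response and drives genes of amino acid supply and redox balance.

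Promoter sequences were taken from RefSeq (GRCh38.p14) as windows from 250 bases before to 50 bases after an annotated transcription start. The table held windows for 7 of the 10 genes, 10 windows in all, and none for *CCN1*, *CRIM1* and *ARHGEF17*. The 4 sequences shown are those of *CCN2* (chr6:131951323-131951622, minus strand) and *ANKRD1* (chr10:90921038-90921337, minus strand), whose levels fell most with siY/T among the genes with a window, and of *F3* (chr1:94541710-94542009, minus strand) and *NT5E* (chr6:85449833-85450132, plus strand), each raised by siY/T in 1 of the treatments. Each is written 5′ to 3′ along the gene's strand. Capitals mark the TEAD core (GGAATG, or CATTCC on the other strand) in *CCN2* and *ANKRD1*, the AP-1 motif TGANTCA in *ANKRD1* and *F3*, and the ATF/CRE half-site TGACG in *NT5E*.
CCN2: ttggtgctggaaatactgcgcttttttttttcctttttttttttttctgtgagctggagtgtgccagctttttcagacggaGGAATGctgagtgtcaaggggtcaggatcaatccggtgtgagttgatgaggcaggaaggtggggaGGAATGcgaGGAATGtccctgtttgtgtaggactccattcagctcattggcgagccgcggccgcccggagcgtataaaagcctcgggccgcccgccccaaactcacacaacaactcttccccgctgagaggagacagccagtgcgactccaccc
ANKRD1: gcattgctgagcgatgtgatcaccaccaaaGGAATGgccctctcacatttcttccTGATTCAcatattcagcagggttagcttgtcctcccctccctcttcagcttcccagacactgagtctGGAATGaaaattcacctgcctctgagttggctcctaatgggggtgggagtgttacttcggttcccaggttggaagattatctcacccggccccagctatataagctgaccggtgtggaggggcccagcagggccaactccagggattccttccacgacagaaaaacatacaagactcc
F3: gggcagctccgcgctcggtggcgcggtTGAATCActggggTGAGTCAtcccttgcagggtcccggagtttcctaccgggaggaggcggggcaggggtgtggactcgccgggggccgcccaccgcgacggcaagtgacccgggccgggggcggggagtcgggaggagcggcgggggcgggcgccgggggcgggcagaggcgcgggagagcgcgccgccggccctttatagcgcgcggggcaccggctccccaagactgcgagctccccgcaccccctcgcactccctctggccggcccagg
NT5E: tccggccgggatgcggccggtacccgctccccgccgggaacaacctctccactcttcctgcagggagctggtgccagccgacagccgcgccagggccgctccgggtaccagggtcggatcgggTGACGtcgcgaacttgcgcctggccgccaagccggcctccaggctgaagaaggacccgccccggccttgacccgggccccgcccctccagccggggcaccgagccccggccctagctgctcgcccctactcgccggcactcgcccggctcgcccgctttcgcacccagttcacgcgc
The *CCN2* window held 3 TEAD cores, which began 169, 104 and 95 bases before the start. The *ANKRD1* window held 2, at 220 and 128 bases, with an AP-1 motif between them at 195 bases. *AMOTL2*, *AXL* and *AJUBA* have 2 windows each, of which 1 held a single TEAD core, at 69, 212 and 59 bases before its start. The *AXL* window with a TEAD core also held a TGACG half-site, at 195 bases. The *F3* window held 2 AP-1 motifs, at 223 and 210 bases, and no TEAD core. The *NT5E* window held a half-site at 127 bases and neither a TEAD core nor an AP-1 motif. Of all 35116 RefSeq promoter windows of the same length, 14.03% held a TEAD core on either strand, 7.709% an AP-1 motif and 24.55% the half-site TGACG or its complement, against 5, 2 and 2 of the 10 windows of these genes. The CArG box, the motif of serum response factor, was in 1.293% of all windows and in 0 of the 10. A match of letters is a description and does not show a bound site, and YAP/TAZ also act through distant enhancers outside these windows.

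**Figure D1:**
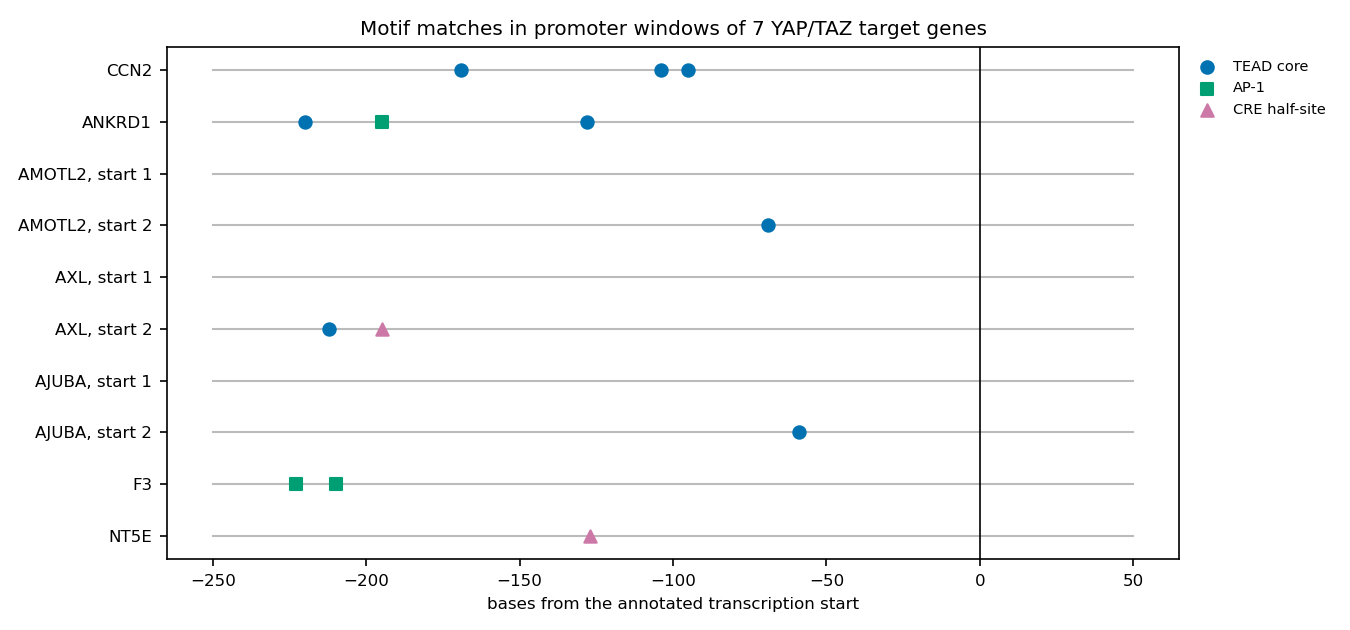
Motif matches in the 10 promoter windows of 7 YAP/TAZ target genes, 1 row per window, plotted by the distance of the first base of a match from the annotated transcription start in bases (negative values lie before the start). CCN2 holds 3 TEAD cores and ANKRD1 2 with an AP-1 motif between them, whereas the F3 row holds 2 AP-1 motifs and the NT5E row a TGACG half-site, with no TEAD core in either. The AXL row with a TEAD core also holds a TGACG half-site.

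Reads on genes numbered from 41408348 to 53619732 per library, which made 1 read worth 0.0186 to 0.0241 CPM. *YAP1* lay between 46.6 and 57.7 CPM in the 4 siY/T libraries and between 236 and 279.9 CPM in the 8 others. *WWTR1* lay between 49.3 and 68.6 CPM in the siY/T libraries and between 104 and 173 CPM elsewhere. *ATF4* lay between 84.5 and 101 CPM in the 4 siATF4 libraries and between 197 and 492 CPM elsewhere, and no library went against its siRNA label. Of 8 hepatocyte markers, *ALB*, *AFP*, *APOA1*, *APOB*, *TTR* and *HNF4A* were at or near 0 in all 12 libraries (at most 0.117 CPM), *SERPINA1* did not exceed 2.32 CPM, and *FGB* ranged from 64.4 to 431 CPM. Of 7 epithelial and mesenchymal markers, the keratin genes *KRT8* and *KRT18* and the mesenchymal gene *VIM* ranged from 312 to 2916 CPM and *FN1* from 18.8 to 79.6 CPM, while *CDH1*, *CDH2* and *EPCAM* did not exceed 7.93, 6.92 and 0.701 CPM. Replicate libraries of siY/T DMSO were the least alike, with an SD over genes of their log2 difference of 0.190, against 0.110 to 0.132 in the other groups. The fit behind the SEs and p-values below shares 1 spread per gene among all groups. It does not allow for the wider spread of siY/T DMSO.

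In siCtrl DMSO cells, the 10 genes covered a wide range of levels. Divided by the length of their GENCODE exons, *AXL* was the highest, with 137 CPM per kilobase, followed by *CCN1* with 78.0, *CRIM1* with 67.2, *AJUBA* with 24.7, *AMOTL2* with 21.6 and *CCN2* with 14.2. *ARHGEF17* was at 8.76, *NT5E* at 2.32, *F3* at 1.15 and *ANKRD1*, the lowest, at 0.875 CPM per kilobase. These lengths merge the exons of all transcripts of a gene, while reads were counted over RefSeq mRNA exons, so the order is approximate. The order changed with the siRNAs, and *CCN2* stood in place 8 of 10 in siY/T DMSO cells and in place 4 in siATF4 DMSO cells. The levels of each gene in the 12 libraries are shown in the plot by gene.

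**Figure D2:**
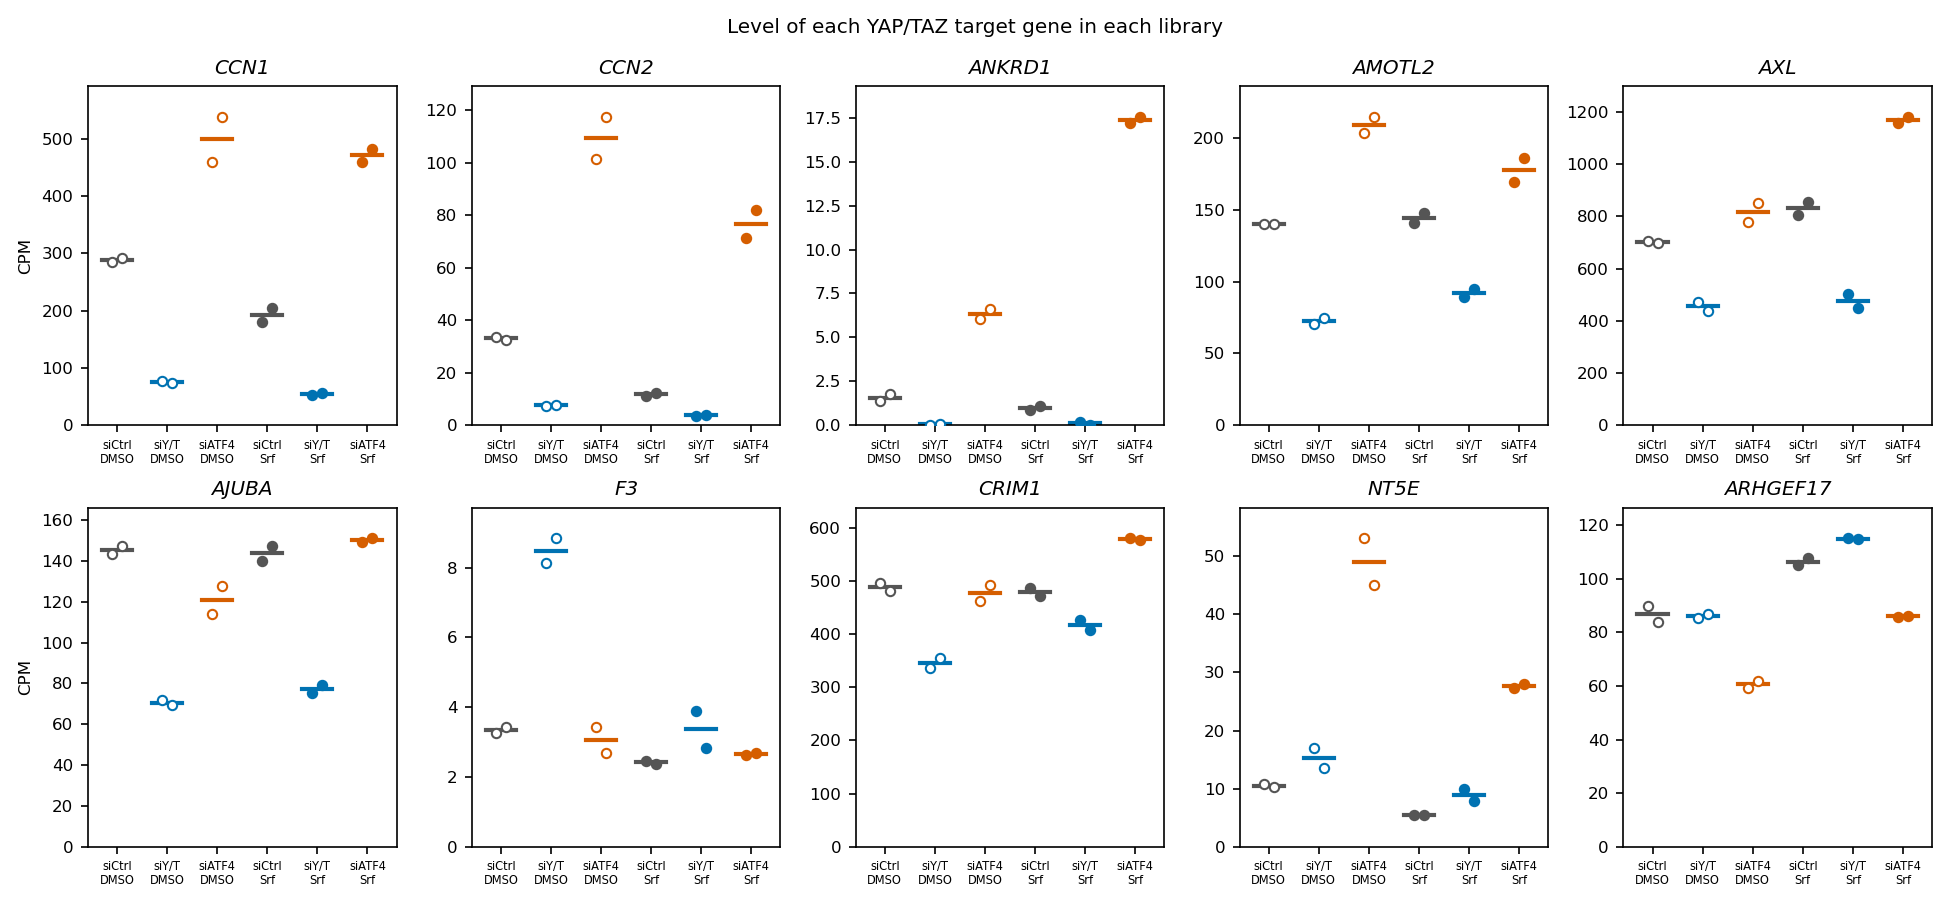
Level of each of the 10 genes in each of the 12 libraries, in CPM on a linear axis from 0 that differs between panels. Points are single libraries (open, DMSO; filled, Sorafenib) and lines the mean of the 2 libraries of a group. CCN1, CCN2, ANKRD1 and AMOTL2 are lowest in siY/T and highest in siATF4 cells, F3 is highest in siY/T DMSO cells, and NT5E is highest in siATF4 cells.

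To ask which of the genes depend on YAP/TAZ in HLE cells, siY/T was compared with siCtrl. In DMSO, 6 of the 10 genes were lowered (*CCN1*, *CCN2*, *ANKRD1*, *AMOTL2*, *AXL* and *AJUBA*) and 1, *F3*, was raised, where 3.61% of all genes tested were lowered and 11.0% raised. In Sorafenib, the 6 genes named were again lowered and *NT5E* was raised, against 3.84% and 6.11% of all genes. The 10 genes were chosen with earlier results of these data known, so these counts beside the shares are a description. A gene is called lowered or raised where its log2 fold change, on the log2(CPM + 0.5) scale, is 0.58 or more in size and the two-sided p of limma, before adjustment, is under 0.05. Adjusted p-values are those of limma with Benjamini-Hochberg (BH) adjustment over the 13515 genes. The median log2 fold change of the 10 genes was -0.79 in DMSO and -0.72 in Sorafenib, where that of all genes was 0.07 and 0.05. Both siY/T libraries lay below both siCtrl libraries for 7 of the 10 genes in DMSO and for 7 in Sorafenib, as they did for 30.3% and 30.1% of all genes, and above them for 2 and 3 genes, against 46.4% and 46.2%. In these bulk libraries, a lower level in every cell cannot be told apart from a smaller share of cells that hold the transcript.

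*CCN1* (CYR61, chromosome 1, 86046444 to 86050272 on the plus strand, GRCh37 as for all gene positions given) and *CCN2* (CTGF, chromosome 6, 132269316 to 132272512, minus strand) encode secreted matricellular proteins that bind integrins and are the most used readouts of YAP/TAZ. In DMSO, *CCN1* was at 285 and 292 CPM in the siCtrl libraries and at 77.5 and 74.0 CPM in the siY/T libraries, a log2 fold change of -1.92 (SE 0.071, limma BH adjusted p = 8.59e-10). In Sorafenib it was at 179 and 204 CPM in siCtrl and 53.2 and 55.5 CPM in siY/T, a change of -1.81 (limma BH adjusted p = 1.68e-09). The groups were far apart in both treatments, with 3.79-fold and 3.50-fold less *CCN1* after siY/T on the CPM + 0.5 scale. *CCN2* fell from 33.7 and 32.5 CPM to 7.47 and 7.85 CPM in DMSO, a change of -2.04 (SE 0.084, limma BH adjusted p = 1.79e-09). In Sorafenib it fell from 11.2 and 12.2 CPM to 3.68 and 3.88 CPM, a change of -1.51 (limma BH adjusted p = 2.55e-08). The siY/T Srf libraries, the lowest of the 6 groups, still held 172 and 166 reads of *CCN2*. The long noncoding RNA LINC01013 lies antisense to *CCN2* and shares 278 exon bases with it, 11.89% of the exon bases of *CCN2*. The strand setting of the counting is not given in the sources used here, so reads of the pair may not have been separated.

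*ANKRD1* (chromosome 10, 92671853 to 92680844, minus strand) encodes an ankyrin repeat protein of muscle sarcomeres and nuclei. It was the gene of the 10 with the fewest reads. In DMSO it had 1.38 and 1.75 CPM in siCtrl, 74 and 79 reads, and 0.0390 and 0.0966 CPM in siY/T, 2 and 4 reads. In Sorafenib it had 0.887 and 1.12 CPM in siCtrl, 44 and 55 reads, and 0.193 and 0.0234 CPM in siY/T, 9 and 1 reads. The transcript was thus close to the limit of detection in all 4 siY/T libraries and readily counted in all 4 siCtrl libraries. The log2 fold change was -1.86 in DMSO (SE 0.147, limma BH adjusted p = 2.93e-07) and -1.32 in Sorafenib (limma BH adjusted p = 9.87e-06), and its size depends on the 0.5 CPM added before the logarithm. With 0.1 CPM added it was -3.33 and -2.53, and by edgeR on the reads -4.59 and -3.19. Summed over the libraries, siCtrl cells held 23.9 times the *ANKRD1* reads of siY/T cells per read on genes in DMSO (95% interval 10.8 to 66.3, 153 against 6 reads) and 8.98 times in Sorafenib (4.68 to 19.3, 99 against 10 reads). The intervals are exact binomial ones and cover counting error only.

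*AMOTL2* and *AJUBA* encode proteins that act back on the Hippo pathway. *AMOTL2* (chromosome 3, 134074189 to 134094321, minus strand) is an angiomotin, which binds YAP and holds it outside the nucleus, and AJUBA (gene on chromosome 14, 23440386 to 23451760, minus strand) is a LIM domain protein of cell junctions that binds LATS kinases. *AMOTL2* fell from 140.2 and 140.3 CPM in siCtrl to 70.3 and 74.6 CPM in siY/T in DMSO, a log2 fold change of -0.95 (SE 0.055, limma BH adjusted p = 2.07e-08). In Sorafenib the values were 141 and 148 CPM in siCtrl and 89.6 and 94.8 CPM in siY/T, a change of -0.64 (limma BH adjusted p = 8.53e-07). The siY/T libraries therefore lay well below the siCtrl libraries with either treatment, by 1.93-fold and 1.56-fold. *AJUBA* fell from 144 and 147 CPM to 71.9 and 69.3 CPM in DMSO, a change of -1.04 (limma BH adjusted p = 1.12e-08), and from 140.0 and 148 CPM to 75.3 and 79.4 CPM in Sorafenib, a change of -0.89 (limma BH adjusted p = 5.63e-08). Neither gene differed by more than 8 CPM between the 2 libraries of siCtrl or siY/T in either treatment.

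*AXL* (chromosome 19, 41725128 to 41767671, plus strand), a receptor tyrosine kinase whose ligand is GAS6, was the most abundant of the genes and fell less. In DMSO it was at 707 and 699 CPM with siCtrl and at 472 and 439 CPM with siY/T, a log2 fold change of -0.63 (SE 0.060, limma BH adjusted p = 1.58e-06). In Sorafenib it was at 806 and 854 CPM in siCtrl and 503 and 448 CPM in siY/T, a change of -0.80 (limma BH adjusted p = 2.85e-07). The libraries did not overlap, but the change in DMSO was close to the fold change threshold and no longer passed it without replicate 2 of siY/T DMSO (-0.57) or after quantile normalization (-0.56). *CRIM1* (chromosome 2, 36582921 to 36778278, plus strand), a membrane protein that binds bone morphogenetic proteins, had 496 and 481 CPM in siCtrl and 335 and 356 CPM in siY/T in DMSO. Its change of -0.50 (SE 0.045, limma BH adjusted p = 9.31e-07) exceeded the spread between libraries and missed the fold change threshold. In Sorafenib it had 486 and 472 CPM in siCtrl and 426 and 408 CPM in siY/T, a change of -0.20 (limma BH adjusted p = 0.00267). For *ARHGEF17* (chromosome 11, 73019321 to 73080433, plus strand), the siY/T DMSO libraries, at 85.5 and 86.9 CPM, overlapped those of siCtrl DMSO, at 89.9 and 83.9 CPM. Its change was -0.01 in DMSO (SE 0.046, limma BH adjusted p = 0.846) and 0.11 in Sorafenib (limma BH adjusted p = 0.0583).

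For the other 2 genes both siY/T libraries lay above both siCtrl libraries. *F3* (chromosome 1, 94994729 to 95007315, minus strand) encodes tissue factor, which starts blood coagulation. In DMSO it rose from 3.25 and 3.42 CPM with siCtrl to 8.13 and 8.84 CPM with siY/T, a log2 fold change of 1.23 (SE 0.132, limma BH adjusted p = 4.47e-06). In Sorafenib it was at 2.46 and 2.38 CPM in siCtrl and 3.89 and 2.83 CPM in siY/T, a change of 0.39 (limma BH adjusted p = 0.0265) that missed the fold change threshold and passed it without replicate 2 of siY/T Srf (0.59). The siY/T DMSO libraries were thus the only pair with more than 4 CPM of *F3*. *NT5E* (chromosome 6, 86159302 to 86205509, plus strand) encodes CD73, the ecto-nucleotidase that turns AMP into adenosine. In DMSO it was at 10.8 and 10.3 CPM with siCtrl and at 16.9 and 13.6 CPM with siY/T, a change of 0.51 (SE 0.115, limma BH adjusted p = 0.00193) that passed the threshold without replicate 2 of siY/T DMSO (0.66). In Sorafenib it was at 5.42 and 5.37 CPM in siCtrl and 9.99 and 7.93 CPM in siY/T, a change of 0.67 (limma BH adjusted p = 3.54e-04), which fell to 0.51 without replicate 1 of siY/T Srf. Both siY/T libraries had more *NT5E* than both siCtrl libraries with either treatment, while the 2 siY/T libraries differed from each other more than those of siCtrl.

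Beside these changes, the keratin genes *KRT8* and *KRT18* were also lowered with siY/T in both treatments. In DMSO *KRT8* fell from 2205 and 2284 CPM with siCtrl to 655 and 684 CPM with siY/T, and *KRT18* fell from 1017 and 1047 CPM to 320.4 and 339 CPM. In Sorafenib *KRT8* fell from 2457 and 2558 CPM to 982 and 998 CPM, and *KRT18* from 707 and 735 CPM to 312 and 332 CPM. Both genes have processed pseudogenes with which reads may be shared. The other markers of this list did not fall as a set. With DMSO, mean *VIM* was 2476 CPM after siY/T against 2328 CPM after siCtrl, and the libraries overlapped. Mean *FN1* was higher there, 74.5 against 53.2 CPM. Under Sorafenib both means were lower after siY/T, 2470 against 2904 CPM for *VIM* and 73.0 against 78.7 CPM for *FN1*. *CDH1* and *CDH2* had higher means after siY/T with either treatment, and those of *EPCAM* were close. The summed level of the 7 epithelial and mesenchymal markers was 5562 to 5766 CPM in siCtrl DMSO and 3400 to 3716 CPM in siY/T DMSO, and 6147 to 6301 CPM and 3848 to 3890 CPM in Sorafenib. The part of these shifts in the changes of the 10 genes was not tested.

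**Figure D3:**
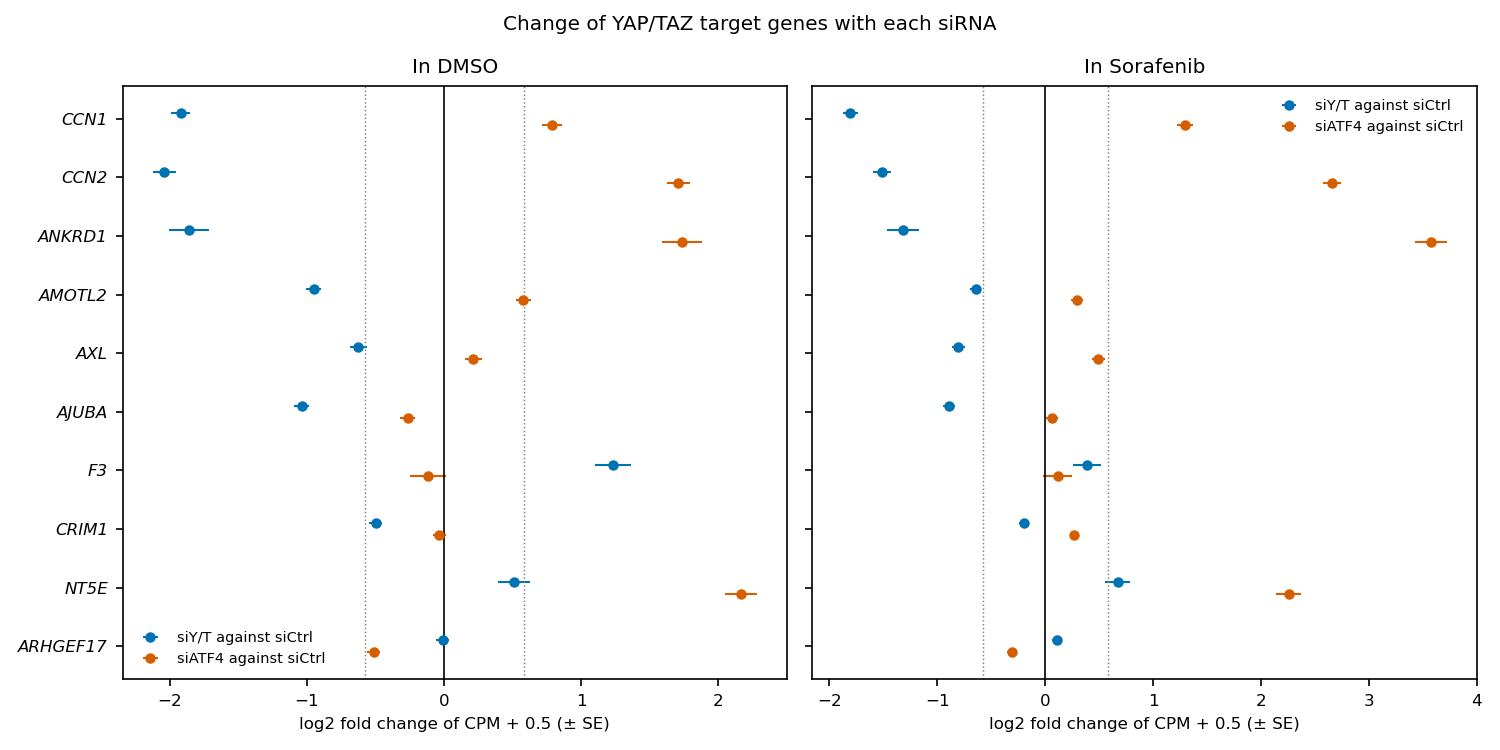
Log2 fold change (± SE of the limma fit, n = 2 libraries per group) of the 10 genes with siY/T and with siATF4 against siCtrl, in DMSO and in Sorafenib, on the log2(CPM + 0.5) scale. Dotted lines mark a change of 0.58 in either direction. Both siRNAs are set against the same siCtrl libraries. CCN1, CCN2 and ANKRD1 lie at -1.32 or below with siY/T and at 0.79 or above with siATF4.

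The second question was how the same genes respond to loss of ATF4. With siATF4, *CCN1*, *CCN2*, *ANKRD1* and *NT5E* were raised in DMSO and again in Sorafenib, and none of the 10 was lowered. These are 4 of 10 genes raised in each treatment, where 8.57% of all genes were raised and 14.1% lowered in DMSO, and 10.3% and 18.7% in Sorafenib. The median log2 fold change of the 10 genes was 0.39 in DMSO and 0.40 in Sorafenib, where that of all genes was -0.001 and -0.01. Both siATF4 libraries lay above both siCtrl libraries for 6 of the 10 genes in DMSO and 9 in Sorafenib, as they did for 43.7% and 43.0% of all genes, and below them for 2 and 1, against 44.3% and 44.1%. The siCtrl libraries are those against which siY/T was compared, so the values of both siRNAs share them.

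*CCN1* was at 460.1 and 538 CPM in siATF4 DMSO, above both siCtrl DMSO libraries, a log2 fold change of 0.79 (SE 0.071, limma BH adjusted p = 5.16e-07). In Sorafenib it was at 459.9 and 481 CPM in siATF4, against 179 and 204 CPM in siCtrl, a change of 1.30 (limma BH adjusted p = 3.19e-09). The siATF4 libraries with and without Sorafenib overlapped. *CCN2* was at 101 and 117 CPM in siATF4 DMSO, a change of 1.71 (limma BH adjusted p = 1.56e-09), and at 71.2 and 81.8 CPM in siATF4 Srf, a change of 2.66 (limma BH adjusted p = 3.59e-11). The *CCN2* level in siATF4 cells was 3.26-fold that of siCtrl in DMSO and 6.31-fold in Sorafenib. *ANKRD1* was at 6.06 and 6.61 CPM in siATF4 DMSO, a change of 1.73 (SE 0.147, limma BH adjusted p = 2.79e-07). In siATF4 Srf it reached 17.2 and 17.6 CPM, 906 and 820 reads, a change of 3.58 (limma BH adjusted p = 2.21e-10). No other of the 10 genes changed as much in any comparison on this scale.

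*NT5E* rose from 10.8 and 10.3 CPM in siCtrl to 53.1 and 45.0 CPM in siATF4 in DMSO, a log2 fold change of 2.17 (SE 0.115, limma BH adjusted p = 3.37e-09). In Sorafenib it rose from 5.42 and 5.37 CPM to 27.3 and 28.1 CPM, a change of 2.26 (limma BH adjusted p = 1.57e-09). For this gene the siATF4 libraries were the highest of all, and siY/T and siATF4 moved its level the same way from siCtrl. The negative regulator *AMOTL2* had 204 and 215 CPM in siATF4 DMSO and 169 and 186 CPM in siATF4 Srf, changes of 0.58 (SE 0.055, limma BH adjusted p = 8.04e-07) and 0.30 (limma BH adjusted p = 2.56e-04). The former was 0.575 before rounding, just short of the threshold, and passed it without replicate 1 of siATF4 DMSO (0.61), after TMM scaling or quantile normalization, and by edgeR. *AXL* had 779.7 and 852 CPM in siATF4 DMSO and 1156 and 1181 CPM in siATF4 Srf, changes of 0.21 (limma BH adjusted p = 0.00644) and 0.49 (limma BH adjusted p = 6.35e-06), both under the fold change threshold.

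The remaining genes were not called. *AJUBA* had 114 and 128 CPM in siATF4 DMSO, below siCtrl, and 149.5 and 151 CPM in siATF4 Srf, above siCtrl, with changes of -0.27 (limma BH adjusted p = 7.25e-04) and 0.06 (limma BH adjusted p = 0.301). *CRIM1* had 462 and 492 CPM in siATF4 DMSO and 579.9 and 576 CPM in siATF4 Srf, with changes of -0.04 (limma BH adjusted p = 0.502) and 0.27 (limma BH adjusted p = 1.09e-04). *F3* had 3.43 and 2.67 CPM in siATF4 DMSO and 2.64 and 2.70 CPM in siATF4 Srf, with changes of -0.12 and 0.12 (limma BH adjusted p = 0.443 and 0.441). *ARHGEF17* was the member of the list with the largest decrease, at 59.3 and 62.1 CPM in siATF4 DMSO and 85.8 and 86.3 CPM in siATF4 Srf, with changes of -0.52 (SE 0.046, limma BH adjusted p = 4.18e-07) and -0.31 (limma BH adjusted p = 4.33e-05). Both missed the fold change threshold. An antisense RNA, ARHGEF17-AS1, shares 979 exon bases with *ARHGEF17*, 9.868% of its exon bases.

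Beside these changes, *WWTR1* itself had 107 and 104 CPM in siATF4 DMSO against 170 and 173 CPM in siCtrl DMSO, a change of -0.70 (limma BH adjusted p = 1.29e-05), while the value of *YAP1* was -0.22. In Sorafenib the values of *WWTR1* and *YAP1* were -0.09 and 0.00. Of the 6 immune and endothelial markers examined, *CD68* was at 61.3 to 75.0 CPM in siATF4 libraries and 19.8 to 32.4 CPM in the others, whereas *PTPRC*, *CD3E* and *PECAM1*, *VWF* and *CDH5* did not exceed 0.202 CPM in any library. The summed level of the 8 hepatocyte markers, nearly all of it *FGB*, was 64.6 to 72.3 CPM in siATF4 libraries, 174 to 431 CPM in siCtrl and 227 to 269 CPM in siY/T. That of the 7 epithelial and mesenchymal markers was 4400.3 to 4413 CPM in siATF4 DMSO and 4590.0 to 4813 CPM in siATF4 Srf, below siCtrl in both treatments. Mean *KRT8* was 1172 and 1639 CPM in siATF4 DMSO and siATF4 Srf, against 2245 and 2508 CPM in siCtrl. Mean *VIM* was 2184 and 1963 CPM against 2328 and 2904 CPM. Mean *KRT18* was 1026 against 1032 CPM in DMSO and was higher in siATF4 in Sorafenib, 1052 against 721 CPM. *FN1*, *CDH1* and *EPCAM* had lower means in siATF4 in both treatments, and *CDH2* only in DMSO. The part of these shifts in the changes of the 10 genes was not tested.

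The third question was how Sorafenib acts on the genes. In siCtrl cells it lowered 3 of the 10, *CCN1*, *CCN2* and *NT5E*, and raised none, where 5.15% of all genes were lowered and 12.3% raised. In siY/T cells it lowered *CCN2*, *F3* and *NT5E*, 3 of 10 against 4.14% of all genes, and raised none, against 5.83%. In siATF4 cells it lowered *NT5E* and raised *ANKRD1*, 1 of 10 each against 2.95% and 5.68% of all genes. The median log2 fold changes of the 10 genes, -0.21, 0.07 and 0.10 in siCtrl, siY/T and siATF4 cells, stood beside 0.05, 0.04 and 0.03 for all genes.

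*CCN2* responded most in siCtrl cells, from 33.7 and 32.5 CPM in DMSO to 11.2 and 12.2 CPM in Sorafenib, a log2 fold change of -1.46 (SE 0.084, limma BH adjusted p = 1.94e-08). The change was -0.93 (limma BH adjusted p = 1.66e-06) in siY/T cells and -0.51 (limma BH adjusted p = 2.47e-04) in siATF4 cells. The last value missed the fold change threshold and passed it without replicate 1 of siATF4 DMSO (-0.62) or replicate 2 of siATF4 Srf (-0.61). For *CCN1* it was -0.59 (limma BH adjusted p = 1.02e-05) in siCtrl cells, -0.47 (limma BH adjusted p = 1.18e-04) in siY/T cells and -0.08 (limma BH adjusted p = 0.364) in siATF4 cells. Its call in siCtrl cells lay at the threshold and was lost without replicate 2 of siCtrl DMSO (-0.57), without replicate 1 of siCtrl Srf (-0.50) and after quantile normalization (-0.49).

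*NT5E* was the only one of the 10 genes lowered by Sorafenib with each siRNA, by 0.90 on the log2 scale in siCtrl, 0.74 in siY/T and 0.81 in siATF4 cells. The adjusted p-values were 1.73e-05, 1.63e-04 and 8.51e-05 (limma, BH). Without replicate 2 of siY/T Srf the change in siY/T cells, -0.58, just missed the threshold. *F3* fell in siY/T cells from 8.13 and 8.84 CPM to 3.89 and 2.83 CPM, a change of -1.23 (SE 0.132, limma BH adjusted p = 7.79e-06). In siCtrl cells its change was -0.39 (limma BH adjusted p = 0.0199) and in siATF4 cells -0.16 (limma BH adjusted p = 0.34). *ANKRD1* had lower levels with Sorafenib in siCtrl cells, a change of -0.46 (limma BH adjusted p = 0.0152), which by edgeR on the reads was -0.66 and passed the fold change threshold. In siATF4 cells it rose with Sorafenib from 6.06 and 6.61 CPM to 17.2 and 17.6 CPM, a change of 1.39 (limma BH adjusted p = 7.64e-06).

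The abundant junctional, receptor and signalling genes stayed under the fold change threshold with Sorafenib. The log2 fold change of *AMOTL2* was 0.04, 0.35 and -0.24 in siCtrl, siY/T and siATF4 cells, that of *AJUBA* -0.02, 0.13 and 0.31, and that of *AXL* 0.24, 0.06 and 0.52. The *AXL* change in siATF4 cells passed the threshold without replicate 2 of siATF4 DMSO (0.58). For *CRIM1* it was -0.03, 0.27 and 0.28. *ARHGEF17* was higher with Sorafenib in each case, by 0.29, 0.41 and 0.50, with adjusted p-values of 1.00e-04, 9.52e-06 and 2.13e-06 (limma, BH), and libraries that did not overlap.

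**Figure D4:**
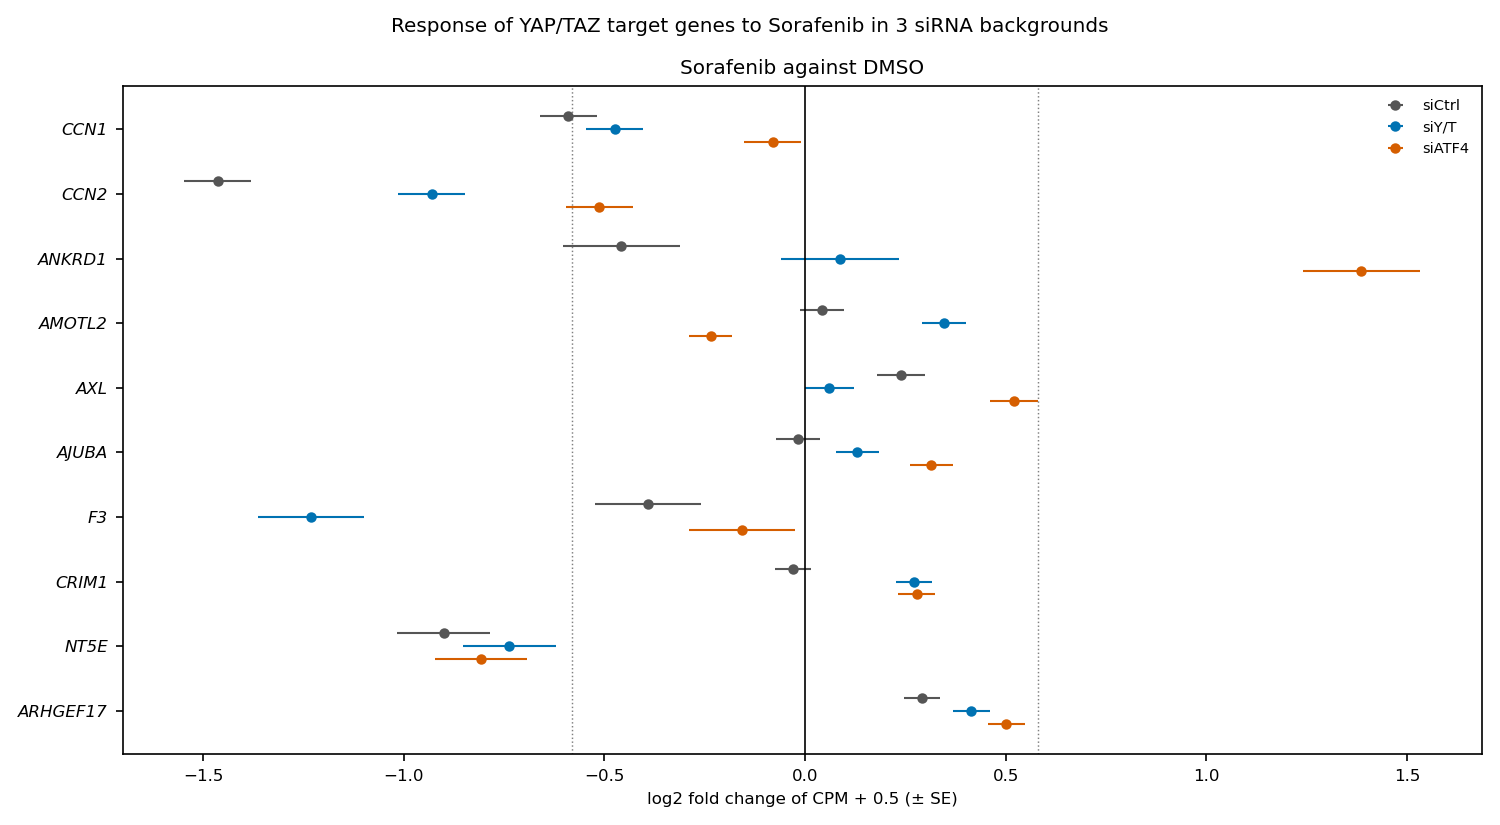
Log2 fold change (± SE of the limma fit, n = 2 libraries per group) of the 10 genes with Sorafenib against DMSO in siCtrl, siY/T and siATF4 cells, on the log2(CPM + 0.5) scale, with dotted lines at 0.58 in either direction. NT5E lies between -0.90 and -0.74 with all 3 siRNAs, whereas CCN2 moves from -1.46 to -0.51 and ANKRD1 from -0.46 to 1.39.

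Whether the effect of an siRNA differed between Sorafenib and DMSO was tested as an interaction in the same limma fit and called at a BH adjusted p under 0.05, with no threshold on its size. For siATF4, the effect was more positive in Sorafenib for 7 of the 10 genes (*CCN1*, *CCN2*, *ANKRD1*, *AXL*, *AJUBA*, *CRIM1* and *ARHGEF17*) and more negative for *AMOTL2*, where 19.3% and 21.8% of all genes were called in these directions. The difference was 1.84 for *ANKRD1* (SE 0.207, limma BH adjusted p = 2.50e-05), 0.95 for *CCN2* (SE 0.118, limma BH adjusted p = 5.48e-05) and 0.51 for *CCN1* (SE 0.100, limma BH adjusted p = 0.00146). The other 5 were between -0.28 and 0.33. The calls of *AMOTL2*, *AXL* and *ARHGEF17* were each lost when single libraries were left out. For siY/T, the effect was more positive in Sorafenib for *CCN2*, *AMOTL2* and *CRIM1* and more negative for *F3*, where 7.81% and 14.2% of all genes were called. The difference was 0.53 for *CCN2* (limma BH adjusted p = 0.0075), so that the fall of *CCN2* with siY/T was smaller in Sorafenib, and -0.84 for *F3* (SE 0.187, limma BH adjusted p = 0.00757), whose rise was smaller. That of *AMOTL2*, 0.30, no longer passed without replicate 2 of siCtrl DMSO (0.30), replicate 1 of siCtrl Srf (0.27) or replicate 2 of siY/T Srf (0.26). Both interactions contain the siCtrl libraries.

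Over the 6 groups, *CCN1* and *CCN2* followed the same order, from siY/T Srf, the lowest, through siY/T DMSO, siCtrl Srf and siCtrl DMSO to siATF4. All neighbours in this order were separate except siATF4 Srf and siATF4 DMSO for *CCN1*. *ANKRD1* differed in that siATF4 Srf was the highest group and the 2 siY/T groups overlapped. *AMOTL2* also had both siY/T groups lowest and both siATF4 groups highest, with no overlap between neighbours. Its siY/T DMSO group was the lowest and siCtrl DMSO lay below siCtrl Srf. Over the 12 libraries, Pearson's r of log2(CPM + 0.5) was 0.97 between *CCN1* and *CCN2* and 0.91 between *CCN1* and *ANKRD1*. It was -0.55 between *CCN1* and *F3* and -0.67 between *CCN1* and *ARHGEF17*. These values are descriptions, since the libraries fall into groups and share their siRNA and treatment. Among 11151 genes with at least 5 CPM on average, those most like *CCN1* were *FJX1*, itself a known YAP/TAZ target (r = 0.99), *MARCHF4* (r = 0.99) and *HSPA9* (r = 0.99). Those most like *CCN2* were *NAV3*, *C1QBP* and the pseudogene *SBDSP1* (r between 0.99 and 1.00), whose reads may be shared with its near-identical parent gene *SBDS*. Those most like *ANKRD1* were *ARHGEF18*, *PCID2* and *NFE2L3* (r = 0.99 each).

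A list of 13 other YAP/TAZ target genes, of which 12 were tested and *FOXF2* did not pass the filter, was set beside the 10 genes. It was also chosen with earlier results of these data known, so its counts are a description. With siY/T, 7 of the 12 were lowered in DMSO and none was raised, with a median log2 fold change of -0.74, and 7 were lowered and 1, *RBMS3*, raised in Sorafenib, with a median of -0.66. With siATF4, 4 were lowered and 3 raised in DMSO, and 3 were lowered and 3 raised in Sorafenib, with medians of -0.04 and 0.09. Of all genes tested, siY/T lowered 3.61% and raised 11.0% in DMSO, and 3.84% and 6.11% in Sorafenib. The shares lowered and raised with siATF4 were 14.1% and 8.57% in DMSO, and 18.7% and 10.3% in Sorafenib. *IGFBP3*, a secreted binding protein of insulin-like growth factors, had the largest fall with siY/T, by 3.59 in DMSO and 3.09 in Sorafenib, with values of -1.20 and -0.02 with siATF4. *GADD45A*, a stress-induced growth arrest gene, fell by 0.71 and 1.08 with siY/T and rose by 2.59 and 2.44 with siATF4. *FJX1* changed by -1.25 and -1.50 with siY/T and 0.65 and 0.88 with siATF4. *CCDC80*, an extracellular matrix protein, fell with both siRNAs, by 0.86 and 0.91 with siY/T and by 1.34 and 1.11 with siATF4. *DOCK5* had log2 fold changes of -0.49 and -0.62 with siY/T, the latter called, and rose by 0.64 and 0.68 with siATF4. *LATS2*, a Hippo pathway kinase, fell by 0.78 and 0.70 with siY/T and had values of 0.34 and 0.35 with siATF4, under the fold change threshold. Both siRNAs are again set against the same siCtrl libraries.

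**Figure D5:**
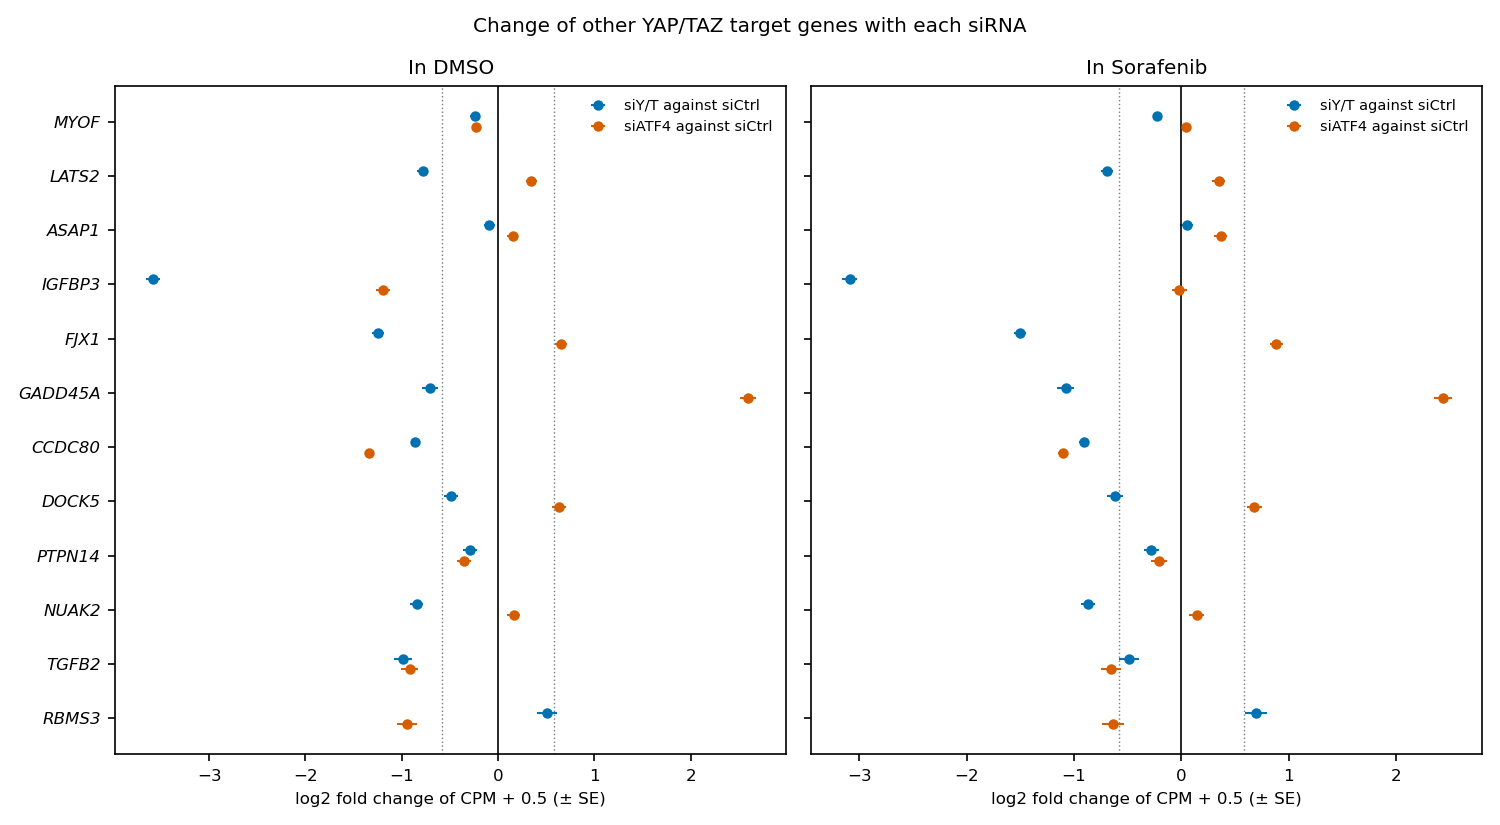
Log2 fold change (± SE of the limma fit, n = 2 libraries per group) of 12 other YAP/TAZ target genes with siY/T and with siATF4 against the same siCtrl libraries, in DMSO and in Sorafenib, on the log2(CPM + 0.5) scale, with dotted lines at 0.58 in either direction. With siY/T 7 genes lie beyond the left line in each treatment, while with siATF4 the genes spread to both sides, from -1.34 to 2.59 in DMSO.

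Of the TEAD factors and their cofactors, 8 genes in all, 4 were lowered with siY/T in DMSO and 3 in Sorafenib, 2 of them the siRNA targets *YAP1* and *WWTR1*. The others were *VGLL3*, a TEAD cofactor, at -1.38 in DMSO and -0.64 in Sorafenib, and *TEAD1*, at -0.59 in DMSO and -0.27 in Sorafenib. The *TEAD1* call in DMSO lay close to the threshold. Its siY/T libraries were far apart, at 177 and 236 CPM, against 302 and 314 CPM in siCtrl. With siATF4, *WWTR1* was the only one lowered, in DMSO, and none was raised in either treatment. Of all genes tested, siY/T lowered 3.61% in DMSO and 3.84% in Sorafenib. For siATF4 the shares were 14.1% and 18.7% lowered and 8.57% and 10.3% raised. The log2 fold changes with siATF4 were -0.09 and 0.40 for *VGLL3* and -0.12 and 0.45 for *TEAD1*.

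Relatives and binding partners of the 10 genes did not move as one. Of 18 listed, 14 were tested and *CCN3*, *CCN4*, *CCN6* and *ENTPD1* did not pass the filter. With siY/T, 4 were lowered and 3 raised in DMSO and 4 and 2 in Sorafenib. Of all genes tested, 3.61% and 11.0% were so called in DMSO and 3.84% and 6.11% in Sorafenib. With siATF4, 5 were lowered and 4 raised in DMSO and 3 and 4 in Sorafenib, against 14.1% and 8.57%, and 18.7% and 10.3%, of all genes. *CCN5*, a member of the family of *CCN1* and *CCN2*, had log2 fold changes of 0.89 and -0.07 with siY/T and fell by 2.37 and 2.69 with siATF4, the opposite of *CCN1* and *CCN2*. *AMOT*, the relative of *AMOTL2*, rose by 1.12 and 0.81 with siY/T and fell by 1.54 and 1.58 with siATF4, where *AMOTL2* stood at -0.95 and -0.64 with siY/T and at 0.58 and 0.30 with siATF4. *ANKRD2*, the relative of *ANKRD1*, fell by 0.75 and 0.67 with siY/T and by 1.53 and 1.32 with siATF4, at 3.91 CPM or less in each group. *ADORA2B*, a receptor for the adenosine that CD73 makes, had log2 fold changes of -0.38 and -0.58 with siY/T and rose by 1.19 and 0.98 with siATF4, the latter in the direction of *NT5E*.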

How the data were processed

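RNA of 12 libraries of HLE cells was measured by RNA-seq. The authors mapped reads to hg19 with STAR (version not given in the sources used here), kept unique hits, counted them with QuasR over RefSeq mRNA exons, and deposited CPM, each library scaled to a total of 1000000, for 26258 Entrez identifiers. The authors ran their own test with edgeR. The study's methods name biological triplicates and another instrument and kit than the labels, and the table holds 2 libraries per group. In each library 100% of the deposited CPM values were whole multiples of 1 read within 0.001 read, so reads were recovered, 41408348 to 53619732 per library, for the count-based alternatives. No column was left without a sample.

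All 12 libraries entered 1 fit of limma 3.58.1 (R 4.3.3) on log2(CPM + 0.5), with a variance trend and 1 coefficient per group. It covered the 13515 genes that reached 1 CPM in 2 or more libraries. SEs are those of this fit, and fold changes on this scale understate the change of low genes. Changes were called with the thresholds of the study's methods, an unadjusted p under 0.05 with a log2 fold change of 0.58 or more in size, and interactions at a Benjamini-Hochberg adjusted p under 0.05. The alternatives were pseudocounts of 0.1 and 1, no filter or one at 5 CPM, TMM scaling, quantile normalization, only the groups compared, a replicate block, edgeR 4.0.16 and DESeq2 1.42.0 on the reads, a call by adjusted p with a size of 0.58 or of 1, and leaving out each library.

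The members and the lists of other genes were chosen with earlier results of these data known. Genes named outside the 10 are the siRNA targets, up to 4 called genes per list with the largest change with an siRNA, and the 3 genes most correlated with *CCN1*, *CCN2* and *ANKRD1*. *RBMS3*, *DOCK5*, *LATS2*, the marker genes and genes below the filter were named after their values were seen. Positions are from GENCODE on GRCh37, names from RefSeq. The limma, edgeR and DESeq2 fits were tried on simulated reads with the same spread set for all genes and groups. This covered siY/T against siCtrl in DMSO and the siY/T interaction only. The other steps were not tested in this way. Figures were drawn with Python 3.11.15 and matplotlib 3.10.9.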

Additional observations from a re-analysis of the deposited data

Results flagged for a closer look

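The effect of an siRNA differed between Sorafenib and DMSO in 12 tests over the 10 genes, each tested for 2 interactions (limma interaction, BH adjusted p under 0.05). Such calls were common among all genes. With siATF4, 19.3% of all genes were called more positive and 21.8% more negative in Sorafenib, and with siY/T 7.81% and 14.2%. With siATF4 the difference of the log2 fold changes, Sorafenib minus DMSO, was 1.84 for *ANKRD1*, 0.95 for *CCN2*, 0.51 for *CCN1*, 0.33 for *AJUBA*, 0.31 for *CRIM1*, 0.28 for *AXL* and 0.21 for *ARHGEF17*, and -0.28 for *AMOTL2*. With siY/T it was 0.53 for *CCN2*, 0.30 for *AMOTL2*, 0.30 for *CRIM1* and -0.84 for *F3*. Groups of 2 libraries are too small to look for a single library apart from its group.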

How the results depend on the processing

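The counts of the 10 genes called were recomputed under 12 other settings and without each of the 12 libraries. No called gene changed direction. Of the recomputed counts, 410 stayed within 1.5 times their value and 22 did not. With a BH adjusted p and a change of at least 1, the genes lowered with siY/T in Sorafenib went from 6 to 3 and those raised from 1 to 0, those lowered by Sorafenib from 3 to 1 in siCtrl, from 3 to 1 in siY/T and from 1 to 0 in siATF4 cells, the siY/T interactions from 1 to 0 more negative and from 3 to 0 more positive, and the siATF4 interactions from 1 to 0 and from 7 to 1. With an adjusted p and a change of at least 0.58, the siY/T interactions more positive went from 3 to 0 and the siATF4 interactions from 1 to 0 and from 7 to 2. These losses follow from the larger change asked for. Without single libraries, the genes raised with siY/T ranged from 1 to 2 in DMSO and from 0 to 2 in Sorafenib, those changed by Sorafenib in siATF4 cells from 1 to 2 lowered and from 1 to 2 raised, those with a more negative siY/T interaction from 1 to 2 and those with a more negative siATF4 interaction from 0 to 1. The genes raised with siATF4 in Sorafenib stayed at 4 throughout.

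The labels number the libraries of each group 1 and 2 and do not say that a number marks a shared culture or day. The deviations of same-numbered libraries correlated between -0.28 and 0.19 over 15 pairs of groups. The correlation was over 0.1 in 4 pairs, which were siCtrl DMSO with siY/T DMSO (0.19) and the 3 pairs of Sorafenib groups (0.100, 0.16 and 0.12), and under -0.1 in 2. Since not every pair was over 0.1, the libraries were not treated as paired. All pairs of groups within a treatment correlated above 0, from 0.036 to 0.19, and those across treatments between -0.28 and 0.005. Whether the numbers pair libraries within a treatment is not settled by these values. With the replicate block the genes lowered and raised were 6 and 1 with siY/T in DMSO and again in Sorafenib and 0 and 4 with siATF4 in both treatments, and no other count changed. The block is 1 term shared by both treatments, so it does not address a pairing within a treatment.

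Values close to 0 that were not called changed sign. After quantile normalization these were *F3* (0.0191) and *CRIM1* (0.0176) with siATF4 in DMSO, *AJUBA* (0.0444) and *CRIM1* (0.0467) with Sorafenib in siCtrl cells, and the siY/T interaction of *CCN1* (-0.0021). Without single libraries they were *ARHGEF17* with siY/T in DMSO (-0.0609 to 0.0382), *F3* (-0.271 to 0.0366) and *CRIM1* (-0.0806 to 0.0104) with siATF4 in DMSO, *AJUBA* with Sorafenib in siCtrl cells (-0.0547 to 0.0213), *ANKRD1* (-0.116 to 0.288) and *AXL* (-0.0222 to 0.144) with Sorafenib in siY/T cells, *CCN1* with Sorafenib in siATF4 cells (-0.193 to 0.0321), and the siATF4 interaction of *NT5E* (-0.0246 to 0.211). The cause was not tested. Depth limits *ANKRD1*, with 1 to 9 reads in the siY/T libraries.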
